A study of Mus musculus with 6 samples.

Results

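Respiratory complex I is the NADH dehydrogenase of the mitochondrial inner membrane, and its nuclear genes carry the symbol Nduf. All genes of the expression table whose symbol begins with Nduf were taken, other than those marked as pseudogenes by -ps. The selection gave 51 genes among the 57010 of the table. By name, 12 were core (Ndufs and Ndufv), 31 accessory (Ndufa, Ndufb and Ndufc) and 8 assembly factors (Ndufaf). Expression was measured by RNA sequencing in gastrocnemius, a mostly fast-fibred calf muscle, of NSG mice, an immunodeficient strain. The radiotherapy group (n = 3) bore flank xenografts of the human breast cancer line MDA-MB-231 in which Rab27a, a vesicle-release GTPase, had been knocked down. The xenografts received 10 Gy once they measured about 800 mm3, and contralateral gastrocnemius was collected on day 3. The control group (n = 3) carried the same Rab27a knockdown tumours without radiotherapy, so the knockdown was shared by both groups and no muscle without it was compared. The knockdown lies in the human tumour cells and cannot be checked in muscle RNA. Neither ages nor a link from sample to mouse is stated, so p-values measure only the spread between these samples, which may be technical.

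Complex I passes electrons from NADH to ubiquinone and pumps protons across the inner membrane, which makes it the main entry of electrons into oxidative phosphorylation. It has a matrix arm, with an N module that oxidises NADH and a Q module that reduces ubiquinone, and a membrane arm that pumps protons. The catalytic core is shared with bacterial enzymes and is encoded partly by nuclear genes and partly by the mitochondrial genome. Accessory subunits surround and stabilise the core, and assembly factors build the enzyme without remaining in it. In muscle the enzyme is more abundant in oxidative than in glycolytic fibres.

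The comparison asked how complex I genes of a distant muscle differed after irradiation of a Rab27a-depleted tumour. No complex I gene passed the test between radiotherapy and control muscle. Of the 51 genes, 48 passed the filter of at least 1 TPM (a transcript abundance scaled for length and library) in at least 3 of 6 samples, and 0 of the 48 passed limma at a Benjamini-Hochberg adjusted p of 0.05. Over all 11375 genes tested, 0 passed too, a share of 0%. No complex I gene reached an unadjusted p of 0.05 either, where 0.967% (110 genes) of all tested genes did so with higher and 2.86% (325 genes) with lower values. In bulk muscle, fewer cells of a type and less RNA per cell cannot be told apart. All 48 fold changes lay within 0.5 of 0 on the log2 scale, from −0.48 for Ndufaf6 to 0.33 for Ndufb3. Within 0.25 of 0 lay 40 of the 48 (83.3%), against 60.5% of all tested genes. Replicates of complex I genes were also closer together, with a median within-group SD of 0.16 on the log2 scale against 0.31 for all tested genes. The median complex I gene lay at percentile 97.1 of expression. Neither comparison was matched for expression level, so they do not show a stability particular to complex I.

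Fold changes are radiotherapy minus control on the scale log2(TPM + 1), and the 95% interval of each of the 48 included 0. The median half-width of the intervals was 0.47, so smaller differences in a single gene were not detectable with 3 samples a group. Values were below 0 for 33 of the 48 genes, or 68.8%, against 67.9% of all tested genes. The median was −0.10 for complex I and −0.11 for all tested genes. That nearness depended on single libraries: without radiotherapy 2 the medians were −0.094 for complex I and −0.0050 for all tested genes, and without radiotherapy 3 they were −0.043 and −0.25. TPM is a share of all transcripts, and that share of negative values depended on the scaling. After median-of-ratios scaling 24 of 48 complex I genes were below 0, against 56.1% of all tested genes. After quantile normalization 18 of 48 were, against 52.3%, and after removal of the mitochondrial genes 19 of 48, against 51.1%. The complex I share was thus below that of all genes under each of these 3 scalings, and the all-gene medians were −0.037, −0.014 and −0.0071. Radiotherapy and control values did not overlap in 8 genes. They were lower after radiotherapy in 7 of the 48, where 7.54% of all tested genes showed this, and higher in 1, where 1.7% did.

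**Figure D1:**
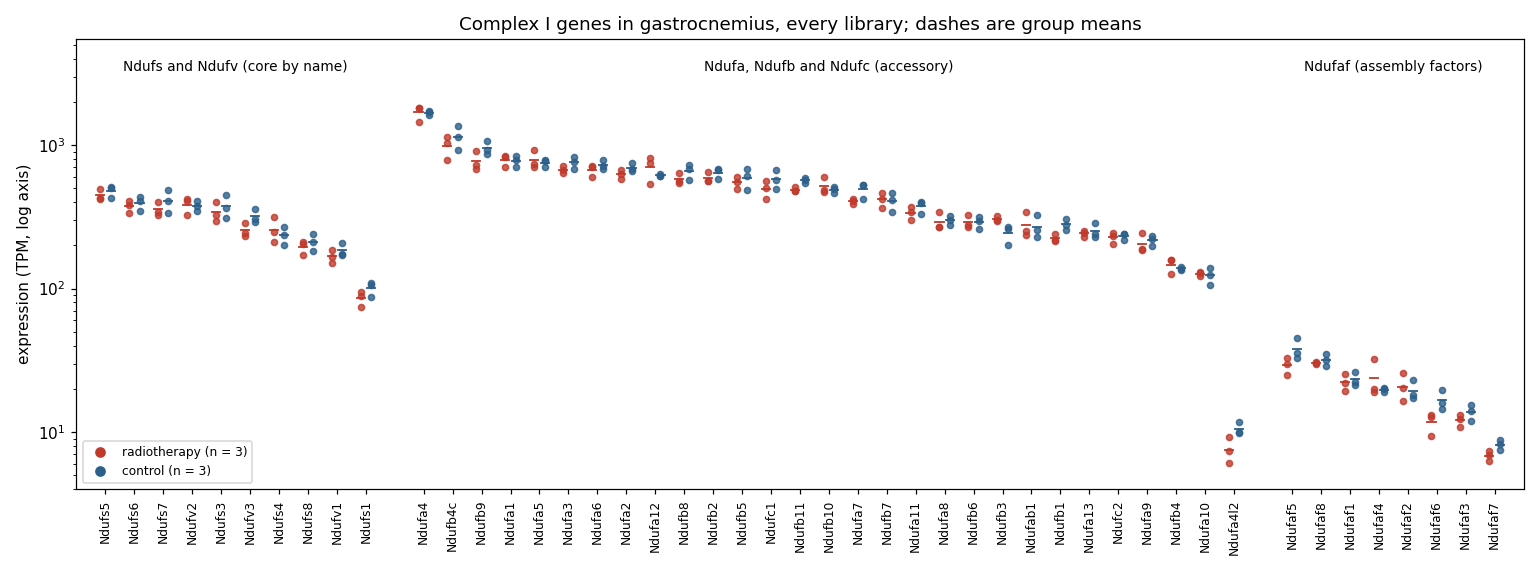
Expression of 47 of the 48 tested complex I genes in TPM (log axis), with 3 radiotherapy points left of 3 control points for each gene and dashes for group means. Assembly factors lie between 6.26 and 45.0 TPM, far below most subunits, and radiotherapy and control points mix in most genes.

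The libraries were described by marker lists chosen for muscle and for other cells. Muscle identity was clear, with Acta1 (skeletal actin) at 6647 to 15355 TPM in radiotherapy and 19091 to 23091 TPM in control libraries. Radiotherapy 2 had the lowest Acta1, the lowest Des and the lowest level of Ckm, the muscle creatine kinase, at 6713 TPM. Mb and Ttn of the same muscle fibre list went the other way, each with a log2 fold change of 0.12. Both were lowest in control 3, at 866 and 96.2 TPM. The mitochondrial genome gave 15.1 to 22.5% of TPM after radiotherapy and 8.93 to 13.7% in control. The 9 slow and oxidative fibre genes summed to 1948 to 2393 TPM in radiotherapy and 1001 to 2846 TPM in control libraries, and 0 passed limma. Leukocyte genes were highest in control 1, at 1739 TPM for the 6 together. The 5 adipocyte genes summed to 573 to 2242 TPM in radiotherapy and 263 to 845 TPM in control libraries, with the thermogenic marker Ucp1 at no more than 0.06 TPM. The 5 erythroid genes, globins and Alas2, summed to 930 to 1618 TPM in radiotherapy and 3352 to 7203 TPM in control libraries. All 5 were lower after radiotherapy without overlap, against 7.54% of all tested genes, and 0 of the 5 passed limma.

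The levels followed the class. Assembly factors had a median of 20.9 TPM (means over the 6 libraries), core genes by name 358 TPM and accessory genes 503 TPM. Among all tested genes the median complex I gene lay at percentile 97.1 of expression, and the median assembly factor at 75.5. The summed TPM of the 48 genes was 19056, 18291 and 16255 in radiotherapy 1, 2 and 3, against 19650, 17456 and 19736 in control 1, 2 and 3. Those ranges overlap, with radiotherapy 3 lowest and control 2 next. Radiotherapy 3 was the lowest library for 23 of the 48 genes, while control 3 was the highest for 17 and control 1 for 15. Control 2 was the highest for none of the 48. Radiotherapy 2 and control 2 were each the lowest for 10. Counted by group, the lowest value lay in a radiotherapy library more often than in a control library, and the highest value more often in a control library. The same count was not made for all tested genes. On this scale 67.9% of them had fold changes below 0, against 68.8% of complex I genes. That likeness depended on single libraries. Without radiotherapy 1, 38 of 48 complex I genes were below 0, against 62.3% of all tested genes. Without radiotherapy 2 it was again 38 of 48, against 50.9%, and without radiotherapy 3 it was 31 of 48, against 80.8%. Whether the tilt is particular to complex I was not tested.

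Core, accessory and assembly genes had similar ratios of radiotherapy to control. The 11 tested core genes summed to 3280 ± 280.0 TPM after radiotherapy and 3501 ± 368 TPM in control (SD, n = 3 each). The 29 tested accessory genes summed to 14430 ± 1179 TPM after radiotherapy and 15276 ± 937 TPM in control. The 8 assembly factors summed to 157 ± 16.5 TPM after radiotherapy and 171 ± 15.4 TPM in control. Each difference of sums was smaller than the SD of either group. The median log2 fold change was −0.11 for core, −0.09 for accessory and −0.12 for assembly genes, with −0.11 for all tested genes. Without radiotherapy 3 the class medians were −0.051, −0.030 and −0.15 in the same order, with −0.25 for all tested genes. Below 0 were 9 of 11 core, 18 of 29 accessory and 6 of 8 assembly genes. The median core level minus the median accessory level, on the log2 scale, was −0.40, −0.56 and −0.50 in radiotherapy 1, 2 and 3, against −0.54, −0.57 and −0.39 in control 1, 2 and 3. The control range contained the radiotherapy range, and the group means differed by 0.013.

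The catalytic core begins with the N module, where electrons leave NADH. Ndufv1, which binds NADH and flavin, had 186, 166 and 151 TPM in radiotherapy muscles, against 175, 172 and 209 TPM in control muscles. Its partner Ndufv2, an iron-sulfur protein, had 409, 422 and 323 TPM after radiotherapy, against 375, 346 and 405 TPM in control. Both genes overlapped between groups, with log2 fold changes of −0.15 (SE 0.21) and 0.030 (SE 0.21). Ndufs1, the largest subunit and a carrier of iron-sulfur clusters, had 94.8, 89.2 and 74.5 TPM after radiotherapy, against 87.8, 105 and 109.97 TPM in control. It was the lowest of the catalytic genes in every library, and its log2 fold change was −0.23 (SE 0.22).

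The Q module carries electrons to ubiquinone. Ndufs7, which holds the terminal iron-sulfur cluster, had 402, 344 and 325 TPM after radiotherapy, against 405, 336 and 484 TPM in control. For Ndufs3, a scaffold of the module, values were 404, 326 and 298 TPM after radiotherapy, against 362, 312 and 448 TPM in control. In both genes control 3 was the highest library and the other libraries mixed between the groups. Ndufs8, an iron-sulfur protein, had 211, 204 and 173 TPM after radiotherapy, against 238, 183 and 212 TPM in control. Their log2 fold changes were −0.19 for Ndufs7 (SE 0.22), −0.12 for Ndufs3 (SE 0.23) and −0.11 for Ndufs8 (SE 0.21).

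Not all Ndufs and Ndufv genes encode catalytic subunits: Ndufs4, Ndufs5, Ndufs6 and Ndufv3 are accessory in function. Ndufv3, a subunit of the N module, had 288, 245 and 231 TPM in radiotherapy muscles, against 359, 306 and 291 TPM in control muscles. Every radiotherapy value was below every control value, and the log2 fold change was −0.32 (SE 0.21, 95% interval −0.79 to 0.15, limma adjusted p = 0.977). The groups overlapped once the mitochondrial genes were removed, where the log2 fold change was −0.19. Ndufs4, a subunit whose loss causes Leigh syndrome in people and a like disease in mice, had 247, 314 and 211 TPM after radiotherapy, against 235, 202 and 267 TPM in control (0.12, SE 0.23). Radiotherapy 2 alone was above the controls. With core restricted to the 7 catalytic genes, the core median was −0.12, against −0.11 by name.

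Accessory genes spanned the widest range of levels, and the most abundant is not a subunit of complex I as now understood. Ndufa4, assigned to cytochrome c oxidase (complex IV), had 1803, 1818 and 1454 TPM after radiotherapy, against 1608, 1733 and 1708 TPM in control (log2 fold change 0.00074, SE 0.18). Radiotherapy held both the highest and the lowest value. Its paralogue Ndufa4l2, a hypoxia-induced gene, was the least abundant accessory gene tested. It had 7.34, 6.10 and 9.20 TPM in radiotherapy muscles, against 11.7, 10.1 and 9.78 TPM in control muscles. The groups of Ndufa4l2 did not overlap, and the log2 fold change was −0.44 (SE 0.24, 95% interval −0.99 to 0.10, limma adjusted p = 0.977). Without Ndufa4, Ndufa4l2 and the gene copy Ndufb4c, the median of the accessory class was −0.07.

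In the distal membrane arm, built of Ndufb subunits, single genes stood on opposite sides. Ndufb3 had 318, 299 and 295 TPM in radiotherapy muscles, against 269.5, 259 and 202 TPM in control muscles. It was the only complex I gene with all radiotherapy values above all control values, at a log2 fold change of 0.33 (SE 0.21, 95% interval −0.14 to 0.80, limma adjusted p = 0.977). Ndufb1, a small membrane subunit, had 216, 241 and 219 TPM after radiotherapy, against 307, 256 and 278 TPM in control (log2 fold change −0.31, SE 0.20). Ndufb11, encoded on the X chromosome and named here because its groups did not overlap, had 508, 481 and 476 TPM after radiotherapy, against 570.0, 544 and 593 TPM in control (−0.22, SE 0.18). Ndufb9 had 903, 724 and 681 TPM after radiotherapy, against 922, 869.8 and 1066 TPM in control (−0.31, SE 0.20), with radiotherapy 1 above control 2. Ndufb10 differed little, with 600.1, 484 and 469 TPM after radiotherapy, against 492, 464 and 507 TPM in control (0.08, SE 0.20). The 11 distal arm genes had a median of −0.10, with 5 above and 6 below 0.

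The promoters of Ndufb3 and Ndufb1, whose values lay on opposite sides, are shown with that of Ndufb4, the one printed window with more than a single kind of motif. Each is the 150 bases before the RefSeq start on GRCm38.p6, 5′ to 3′ on the strand of the gene, with motif letters in capitals.
Ndufb3 (chr1:58586247-58586396, plus strand): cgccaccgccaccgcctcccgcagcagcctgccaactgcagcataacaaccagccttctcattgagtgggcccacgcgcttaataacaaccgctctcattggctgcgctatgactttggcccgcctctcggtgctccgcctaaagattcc
Ndufb1 (chr12:101975739-101975888, minus strand): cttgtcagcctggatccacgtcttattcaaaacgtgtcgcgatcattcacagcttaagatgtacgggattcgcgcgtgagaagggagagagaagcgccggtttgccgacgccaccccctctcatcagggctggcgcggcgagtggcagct
Ndufb4 (chr16:37654369-37654518, minus strand): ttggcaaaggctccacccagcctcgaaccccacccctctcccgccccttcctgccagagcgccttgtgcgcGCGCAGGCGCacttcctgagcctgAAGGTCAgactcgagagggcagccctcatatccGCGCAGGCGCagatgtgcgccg
The motifs searched, on both strands, were GCGCA, any base and GCGC for NRF1, CCGGAAG for ETS factors such as GABP, AAGGTCA for the oestrogen-related receptors and AAGATGGC for YY1, all known regulators of respiratory genes. The ETS letters end in the AAG with which the receptor and YY1 letters begin, so neighbouring matches can share bases. RefSeq windows, which run from 250 bases before to 50 after the start, were found for 41 of the 51 genes. The NRF1 letters were in 9 of the 41, against 4.603% of all 32851 windows and 12.4% of 8478 tested genes with a window. The YY1 letters were in 8 of 41, against 2.75% of all windows and 5.74% of tested genes. ETS letters were in 6 of 41 (14.6%), above the 8.86% of all windows but below the 21.3% of tested genes. Receptor letters were in 3 of 41, against 4.72% of all windows and 4.01% of tested genes. Complex I windows held a median of 7 CG pairs per 100 bases and all windows 2.33, so the GC-rich letters were counted in windows of unequal composition. A match describes letters only.

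Other accessory genes belong to the N module and the proximal membrane arm. Ndufa7, of the N module, had 421, 390.5 and 406 TPM in radiotherapy muscles, against 526, 422 and 530.2 TPM in control muscles (log2 fold change −0.27, SE 0.20). The highest radiotherapy value was just below the lowest control value. Ndufa12, also of the N module, had 817, 538 and 745 TPM after radiotherapy, against 630.4, 614 and 611 TPM in control (0.16, SE 0.21). Its controls were close together, and radiotherapy libraries lay on both sides of them. Ndufa1, an X-linked membrane subunit, had 820.4, 839 and 705 TPM after radiotherapy, against 833, 792 and 702 TPM in control (0.022, SE 0.19). All accessory genes not described singly, with Ndufs6, overlapped between groups, and their log2 fold changes ran from −0.22 for Ndufc1 to 0.06 for Ndufa5. By module, the median log2 fold change was −0.13 for 10 N module genes, −0.10 for 6 Q module genes and −0.05 for 8 genes of the proximal membrane arm. Non-overlapping groups were found in 2 of the N module genes, Ndufv3 and Ndufa7, in 3 of the distal arm genes, Ndufb3, Ndufb1 and Ndufb11, and in no gene of the Q module or the proximal arm. With 7.54% of all tested genes lower and 1.7% higher without overlap, counts over so few genes do not set the modules apart.

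**Figure D2:**
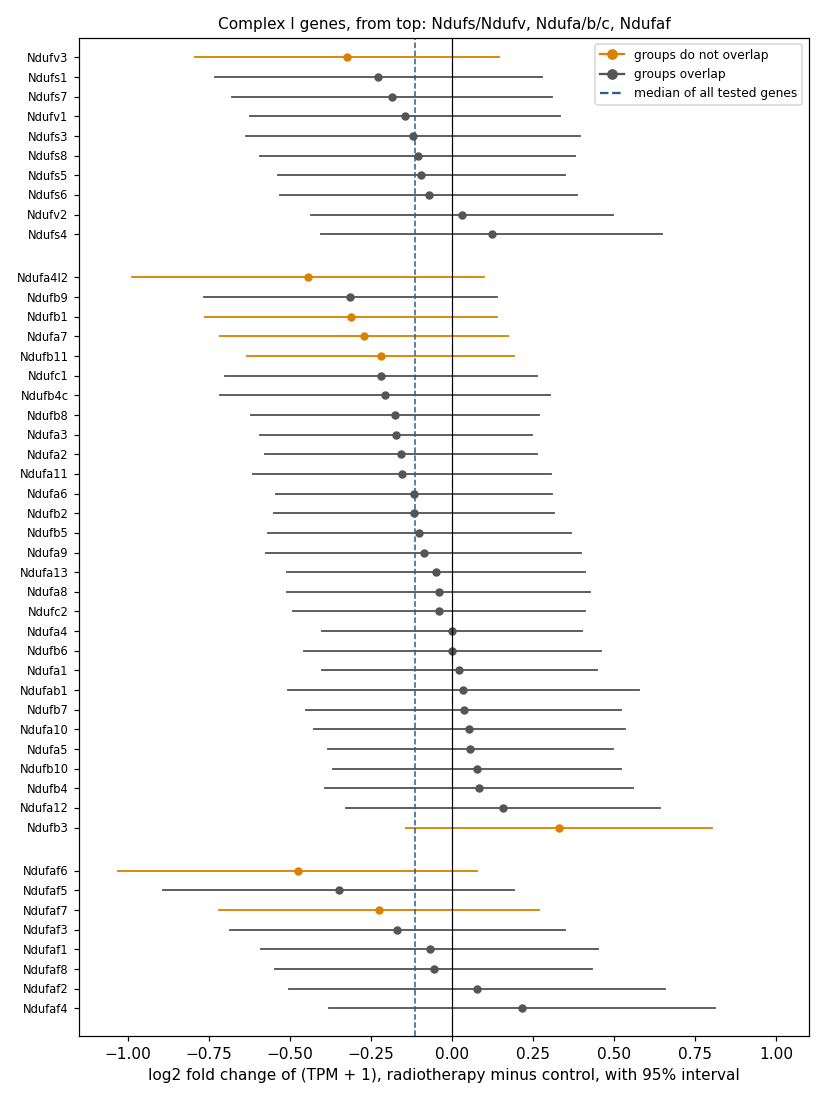
Log2 fold change of (TPM + 1), radiotherapy minus control, with its limma 95% interval for 47 of the 48 complex I genes in 3 blocks by name. Each interval includes 0, and orange marks the 8 genes whose groups did not overlap, 7 of them below 0; the dashed line is the median of all tested genes, −0.11.

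Assembly factors were expressed at low levels and included the most negative value of all tested complex I genes, that of Ndufaf6. Ndufaf6, needed early in assembly of the Q module and mt-Nd1, had 13.15, 9.40 and 12.6 TPM in radiotherapy muscles, against 15.9, 14.6 and 19.5 TPM in control muscles. Its groups did not overlap, and the log2 fold change was −0.48 (SE 0.25, 95% interval −1.03 to 0.08, limma adjusted p = 0.977). Ndufaf5, which hydroxylates Ndufs7, had 32.8, 25.2 and 29.8 TPM after radiotherapy, against 35.5, 32.6 and 45.0 TPM in control. Radiotherapy 1 exceeded control 2 by a small margin, and the log2 fold change was −0.35 (SE 0.24). Ndufaf8, the stabilising partner of Ndufaf5, had 30.5, 30.0 and 31.0 TPM after radiotherapy, against 31.85, 28.9 and 34.8 TPM in control (−0.06, SE 0.22). Ndufaf7, a methyltransferase that acts early in assembly, had 6.87, 6.26 and 7.34 TPM after radiotherapy, against 8.20, 7.53 and 8.73 TPM in control (−0.23, SE 0.22). The groups of Ndufaf7 did not overlap, with the highest radiotherapy value close under the lowest control value.

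Ndufaf3 and Ndufaf4 act together on the Q module and had fold changes of opposite sign, within their error. Ndufaf3 had 12.4, 10.8 and 13.05 TPM after radiotherapy, against 15.4, 11.9 and 13.9 TPM in control (log2 fold change −0.17, SE 0.23). Ndufaf4 had 19.97, 19.1 and 32.3 TPM after radiotherapy, against 20.3, 18.99 and 19.99 TPM in control (0.22, SE 0.26), so on the TPM scale its positive value came from radiotherapy 3, and without that library it was −0.017. Under median-of-ratios, quantile and mitochondria-free scaling it was 0.31, 0.39 and 0.35, with all radiotherapy values above all control values. Ndufaf1, a member of the complex that builds the membrane arm, had 25.3, 21.8 and 19.4 TPM after radiotherapy, against 21.4, 22.2 and 26.2 TPM in control (−0.07, SE 0.23). Ndufaf2, a paralogue of Ndufa12 that acts late, had 20.1, 16.4 and 25.7 TPM after radiotherapy, against 23.05, 18.01 and 17.3 TPM in control (0.08, SE 0.26). Both overlapped between groups.

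Of 16 assembly factors not named Nduf, 15 were in the table under the symbols searched and tested, and 0 passed limma. They had a median of −0.16, with 12 of 15 below 0 against 67.9% of all tested genes. Lower, non-overlapping values after radiotherapy were found in 4 of 15, Tmem242, Tmem126a, Dmac2 and Timmdc1, against 7.54% of all tested genes. Tmem242 was the most negative, with 89.6, 52.3 and 68.7 TPM after radiotherapy, against 99.98, 99.3 and 107 TPM in control (−0.57, SE 0.25). Tmem126a had 100.91, 76.5 and 73.1 TPM after radiotherapy, against 107, 120.3 and 110.4 TPM in control (−0.44, SE 0.23). In complex II, which also feeds electrons to ubiquinone, all 4 subunit genes were below 0 with a median of −0.29, and none passed. Of 7 regulators of respiratory genes, 6 were tested, with log2 fold changes from −0.29 for Nrf1 to 0.05 for Ppargc1a, and none passed.

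Transcripts of the 7 subunits encoded by the mitochondrial genome stood higher relative to the nuclear ones after radiotherapy. That was not particular to complex I. The whole mitochondrial genome gave 18.9, 22.5 and 15.1% of TPM in radiotherapy 1, 2 and 3, against 10.4, 13.7 and 8.93% in control 1, 2 and 3. The 7 subunit transcripts summed to 41436, 55173 and 34816 TPM in radiotherapy 1, 2 and 3, against 25310, 31362 and 20113 TPM in control 1, 2 and 3. Divided by the nuclear complex I sum of the same library, which removes the common scale, they gave 2.17, 3.02 and 2.14 after radiotherapy, against 1.29, 1.80 and 1.02 in control. The groups of that ratio did not overlap, and the mean was 2.44 ± 0.496 after radiotherapy and 1.37 ± 0.395 in control (SD, n = 3 each). None of the 7 mitochondrial subunit genes passed limma. An unadjusted limma p under 0.05 with higher values was found in 6 of the 7, against 0.967% of all tested genes. The log2 fold changes ran from 0.11 for mt-Nd3, the gene that did not reach it, to 1.40 for mt-Nd4l, which overlaps a neighbouring gene. As a share of TPM outside the mitochondrial genome, the nuclear genes were 2.35, 2.36 and 1.92% after radiotherapy, against 2.19, 2.02 and 2.17% in control. Those shares overlapped, with radiotherapy 1 and 2 highest and radiotherapy 3 lowest. Fibre genes also differed between the groups. The 9 fast fibre genes summed to 71601 to 114892 TPM after radiotherapy and 121365 to 140152 TPM in control. Lower, non-overlapping values were found in 5 of the 9, against 7.54% of all tested genes, and 0 of the 9 passed limma. Myh1, of the same list, went the other way with a log2 fold change of 0.54, and its groups overlapped. Radiotherapy 2 had the lowest fast fibre sum of all libraries and the highest ratio, while within control, control 3 had the lowest of both. Of the 9 slow and oxidative fibre genes, 8 had values above 0 with a median log2 fold change of 0.37, and all overlapped. The 3 tendon genes summed to 4.97 to 7.27 TPM after radiotherapy and 11.8 to 23.9 TPM in control, and both that were tested, Scx and Fmod, were lower without overlap. The part of these genes in the ratio was not tested.

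**Figure D3:**
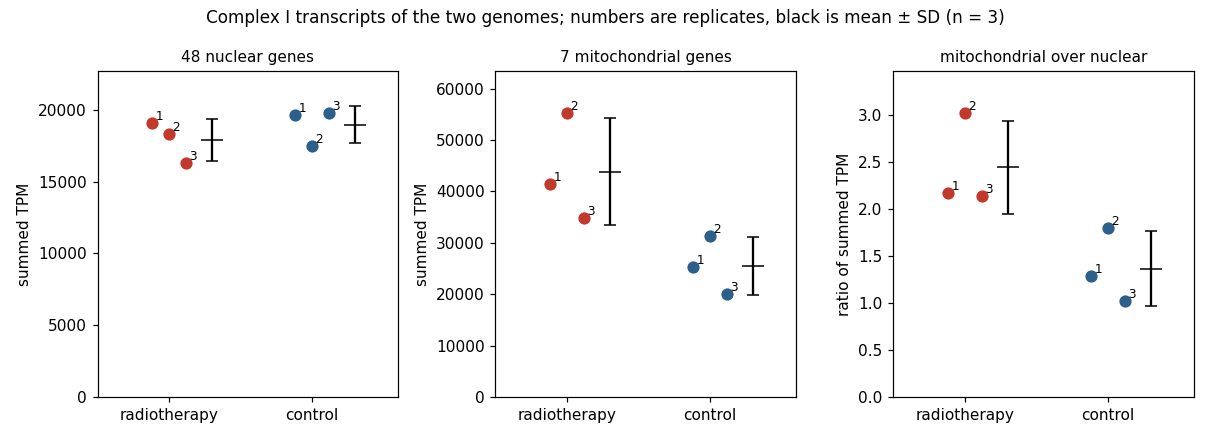
Summed TPM per library of 48 nuclear and 7 mitochondrially encoded complex I genes and the ratio of the sums, for radiotherapy and control; numbers are replicates and black marks are mean ± SD (n = 3). The nuclear sums overlap, while the ratio is 2.14 to 3.02 after radiotherapy and 1.02 to 1.80 in control.

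Complex I genes have processed copies elsewhere in the genome, and 3 copies held a sizeable share of the signal. A search of GENCODE M21 transcripts with the longest reading frame of 47 of the 51 genes found 21 copies at 90% identity or more over at least 50% of the frame. Of those 21, 3 averaged at least 1 TPM. Ndufb4c, annotated there as a processed pseudogene, is identical to Ndufb4 over all 390 bases of the frame. Its annotated model is those 390 bases, while the longest coding transcript of Ndufb4 has 971. The first 60 bases, counted from the start codon, show why reads of this stretch cannot be assigned to one of them (GRCm38, gene spans given, both minus strand).
Ndufb4 (chr16:37647170-37654453): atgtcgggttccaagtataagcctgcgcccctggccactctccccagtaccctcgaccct
Ndufb4c (chr15:73809507-73809896): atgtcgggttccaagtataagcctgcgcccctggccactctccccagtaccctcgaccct
Ndufb4c had 1026, 1143 and 793 TPM after radiotherapy, against 1136, 924 and 1363 TPM in control (log2 fold change −0.21, SE 0.23). Ndufb4 itself had 157, 158 and 126 TPM after radiotherapy, against 142, 136 and 135.5 TPM in control (0.08, SE 0.21). The copy thus took 86.3 to 87.9% of their sum after radiotherapy and 87.1 to 91.0% in control. With gene and copy summed, the log2 fold change of Ndufb4 was −0.17 (SE 0.22), the opposite sign to Ndufb4 alone, and none of the 3 values passed limma.

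The pseudogenes Ndufs5-ps and Ndufa12-ps, left out by name, each differ from their parent at 2 positions. For Ndufa12 these were A99G and T378C, the base of the gene first, counted from the start of the 402-base alignment. Bases 79 to 138 of that alignment are shown, with the differing base in capitals (GRCm38, gene spans given, both plus strand).
Ndufa12 (chr10:94198720-94221443): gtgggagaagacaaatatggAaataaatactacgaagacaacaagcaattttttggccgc
Ndufa12-ps (chr5:130188395-130188796): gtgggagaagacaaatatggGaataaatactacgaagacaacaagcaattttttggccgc
Ndufa12-ps had 74.1, 75.8 and 62.5 TPM after radiotherapy, against 63.7, 65.3 and 86.2 TPM in control, and took 9.47 ± 2.51% of the pair's sum after radiotherapy and 10.4 ± 1.73% in control (SD, n = 3 each). Ndufs5-ps had 285, 289.9 and 262 TPM after radiotherapy, against 292, 242 and 361 TPM in control. Ndufs5, a subunit of the intermembrane-space side, had 497, 428 and 421 TPM after radiotherapy, against 508, 426 and 504 TPM in control, so the copy took 38.4 ± 1.995% of their sum after radiotherapy and 38.1 ± 3.10% in control (SD, n = 3 each). How reads were divided between gene and copy is not given in the sources used here. The 3 complex I names below the expression filter were Ndufs6b, Ndufb11b and Ndufa11b, each similar to a subunit gene. Ndufs6b reached 0.79 TPM in radiotherapy 2, Ndufb11b 0.10 TPM in the same library, and Ndufa11b was listed at 0 in all 6.

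**Figure D4:**
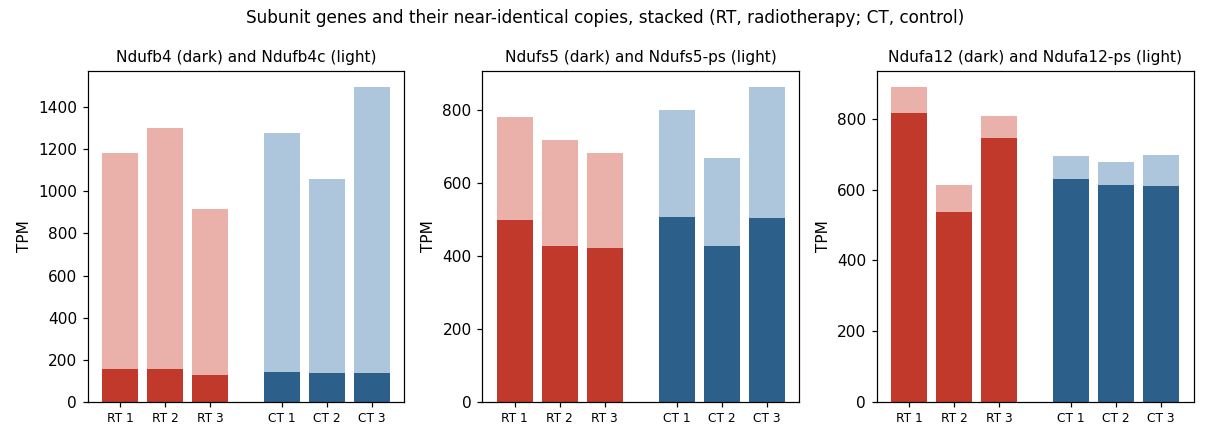
TPM of Ndufb4, Ndufs5 and Ndufa12 (dark) with their near-identical copies stacked on top (light) in radiotherapy (RT, red) and control (CT, blue) libraries. The copy makes up 86.3 to 91.0% of the pair for Ndufb4, and group heights overlap in each pair.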

How the data were processed

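TPM values for the 6 samples were deposited by the authors as a single table whose columns each sum to 1000000, so read depth is unknown and no counting interval can be given. Library preparation used the TruSeq RNA kit, per the labels' protocols. HISAT2, StringTie, RSEM and build mm9 are named, per the submitters' processing notes; tool versions, annotation, strandedness and how reads were divided between copies are unstated. The groups came from sample titles.

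Values were analysed as log2(TPM + 1) with limma 3.58.1 in R 4.3.3 (mean-variance trend, two-sided, group as the only term) over all 11375 genes reaching 1 TPM in 3 or more samples, with Benjamini-Hochberg adjustment. Low genes have understated fold changes. The fit was tested on simulated data. Copies were found with BLAST 2.17.0. Figures used matplotlib 3.10.9.

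Genes given in full were, by rule, the catalytic core, the 4 most abundant accessory and assembly genes, up to 4 per class and direction of smallest p, and every assembly factor; 1 gene is counted in sums and medians but not reported singly here. Members, lists and rules were chosen with earlier results of these data known. Replicate numbers did not pair the samples.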

Additional observations from a re-analysis of the deposited data

How the results depend on the processing

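No complex I gene passed limma in any of 15 other fits, nor at a threshold of 0.1: other pseudocount, filters, scalings, no trend, robust fit, the replicate block, and each sample left out in turn. Over all genes the count was 0 in the fits that kept all 6 samples, with a leave-one-out range of 0 to 1: 1 predicted gene without radiotherapy 1 (Gm24497) and 1 without control 1 (Gm55635). Fitting the replicate number as a block gave 0 calls among all genes and among complex I genes. Same-numbered samples did not deviate together (correlations of −0.06, 0.02 and −0.11 across genes), so the block tests a shared number only.

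Scaling changed the sign of class medians, though not in each case. After median-of-ratios scaling the median log2 fold change was −0.0079 for core and −0.025 for assembly genes. It was 0.011 for accessory and 0.00085 for all complex I genes. With quantile normalization the median log2 fold change was 0.052 for all complex I genes, 0.056 for accessory and 0.049 for assembly genes. With the mitochondrial genes removed it was 0.036 for all and 0.046 for accessory genes, and the all-gene median was −0.0071 in place of −0.11. The log2 ratio of summed TPM, −0.085 for all and −0.082 for accessory genes, was 0.045 and 0.049 after median-of-ratios scaling, and 0.054 and 0.056 without the mitochondrial genes. Leaving out 1 sample kept the median of all complex I genes between −0.17 and −0.043, while that of all tested genes lay between −0.25 and −0.0050. Non-overlapping lower groups numbered 20 of 48 without control 2, where 12.9% of all tested genes had them, and 15 without radiotherapy 1, where 12.4% did. Without radiotherapy 3 they numbered 7 of 48, where 30.7% of all tested genes had them. Each share comes from the same fit with 1 sample fewer, and the reason for these differences was not tested. The 7 genes with lower non-overlapping groups numbered 1, 1 and 3 under median-of-ratios, quantile and mitochondria-free scaling, against 6.68, 5.22 and 3.92% of all tested genes. Higher non-overlapping groups were those of Ndufa12 and Ndufaf4, of Ndufaf4, and of Ndufb3 and Ndufaf4, against 3.93, 5.21 and 3.89%. An unadjusted limma p under 0.05 was reached by 1 of 48 complex I genes in each scaling: Ndufa4l2, Ndufaf4 and Ndufb3. Without radiotherapy 3 it was again reached by 1, Ndufa4l2. The share of all tested genes at that p was not counted in these fits, so the counts are not read as a result about complex I. TPM without counts limits how firmly low genes such as the assembly factors can be read.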
